A study of Drosophila melanogaster with 17 samples.

Results

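The fly miRNA miR-281 comes from 2 near-identical hairpins, mir-281-1 and mir-281-2, and it was described here in Drosophila Schneider 2 (S2) cells because its strands were near equal in abundance and slow to take up label. All listed arms whose names begin with mir-281-1- or mir-281-2- were taken, which gave 4 arms in the unoxidised tables. The 3p arms of both hairpins are identical over their first 27 bases and were listed with the same reads in 7 of 9 libraries, with a difference of at most 2 reads in the others. Counted once, they leave 3 distinct strands out of 126 distinct strands in the unoxidised count table: miR-281-1-5p (listed as mir-281-1-5p), miR-281-2-5p (mir-281-2-5p) and the shared miR-281-3p (mir-281-2-3p). In the oxidised count table, 2 of 93 distinct strands belonged to miR-281, the 5p strands; the 3p strand after oxidation was not analysed here. The hairpins were chosen by measured values, the abundances of their strands and the T>C percentages, so the levels, the ratio of 5p to 3p and the T>C percentages are given as descriptions with no test. Tests were run on changes of abundance with oxidation and with time, on the ratio of the 5p copies and on read length.

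A miRNA hairpin is cut by Drosha and Dicer-1 into a duplex, of which one strand is usually kept in an Argonaute protein and the other is degraded. In flies most guide strands are loaded into Argonaute1 (Ago1), while duplexes with a well-paired centre can be sorted into Argonaute2 (Ago2), where the methyltransferase Hen1 adds a 2′-O-methyl group to the 3′ end. This group protects an RNA from periodate, so oxidised libraries hold mainly Ago2-bound small RNAs and others with a blocked end. In the mosquito Aedes albopictus, miR-281 is known as a midgut miRNA.

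Wild-type S2 cells, a macrophage-like embryonic line, received 500 µM 4-thiouridine (s4U), a uridine analogue that is built into new RNA. Total RNA was then treated with iodoacetamide (IAA), which makes reverse transcription read s4U as C, so that new molecules show T>C mismatches. Each treated RNA was split into an unoxidised portion and a portion oxidised with NaIO4, at 0, 0.25, 0.5, 1, 3, 6, 12 and 24 h, which gave 8 libraries in each group. The 0 h libraries of both groups had IAA but no s4U. One more unoxidised library had neither s4U nor IAA. Each time is a single library, so values over a group give the spread between times, and nothing in the labels says that the times came from separate cultures.

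The unoxidised time course held 19041816 to 24665859 small RNA reads per library and the oxidised one 19074278 to 42511487. The miRNA share of these reads was 54.3% ± 1.49 without and 9.53% ± 1.89 with oxidation (SD, n = 8 each). In this bulk RNA, fewer cells with a strand and less of it per cell cannot be told apart. All 13 miRNAs on a list of abundant S2 miRNAs were measured, with means from 3717 RPM for miR-277-3p to 147021 RPM for bantam-3p (RPM scales reads to all small RNA reads of a library; unoxidised). Of 9 miRNAs listed for muscle, neurons, late stages or disc epithelia, 6 were measured, none of them from the disc epithelia. Their means ran from 0.222 RPM for miR-124-3p to 1.75 RPM for let-7-5p, below every miR-281 strand.

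Both hairpins lie on the minus strand of chromosome 2R, mir-281-1 at 12170373 to 12170462 and mir-281-2 at 12170153 to 12170244 (BDGP6 annotation, the coordinates of dm6), with 128 bases between them. They sit in an intron of the protein-coding gene Oda, which encodes ornithine decarboxylase antizyme, at 12166295 to 12174264 on the same strand. Both are also inside an exon of the non-coding RNA asRNA:CR46194, at 12169558 to 12171706. The 5p strands agree at 21 of 22 bases once aligned, and the listed start of miR-281-1-5p is 1 base earlier in the hairpin arm. Because of this earlier start the seeds (nucleotides 2 to 8, which guide target pairing) differ: position by position they share 1 of 7 bases. The base that separates the copies is nucleotide 11 of miR-281-1-5p and nucleotide 10 of miR-281-2-5p, outside the seed.

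Almost all 5p reads carried the separating base of the copy they were listed under. A read with the base of the other copy would match the other hairpin at that place, and the mapping settings are not given. The counts are therefore no independent check of the assignment. In the unoxidised time course, 19 of 4226 reads of miR-281-1-5p (0.450%) showed the base of the other copy, and after oxidation 3 of 5631 did (0.0533%). For miR-281-2-5p the counts were 0 of 21304 and 0 of 2654. One start was listed for each strand, so reads with other starts are outside these values.

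The predicted folds of the hairpins were alike, with minimum free energies of -33.9 kcal/mol for mir-281-1 and -32.5 kcal/mol for mir-281-2 (RNAfold). In each 5p strand 19 of the first 22 nucleotides were paired. Unpaired were nucleotides 10, 11 and 17 of miR-281-1-5p and nucleotides 9, 10 and 16 of miR-281-2-5p, which are the same places of the duplex given the earlier start. In the 3p strand nucleotides 10 to 12 were unpaired in both folds, so the predicted centre was unpaired in both hairpins. These are folds of whole hairpins, and a link between structure and sorting was not tested.

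In unoxidised RNA the 3p strand ranged from 92.4 to 155 RPM with a median of 137 RPM (129 RPM ± 21.8, SD, n = 8; 2245 to 3441 reads per library). miR-281-2-5p ranged from 77.8 to 145 RPM with a median of 118 RPM (119 RPM ± 21.2, SD, n = 8; 1890 to 3213 reads). miR-281-1-5p ranged from 16.6 to 27.7 RPM with a median of 24.1 RPM (23.6 RPM ± 3.66, SD, n = 8; 403 to 614 reads). The values of the 3p strand and miR-281-2-5p overlapped, whereas the lowest value of either was above the highest value of miR-281-1-5p. Within libraries, the log2 ratio of miR-281-2-5p to the 3p strand ran from -0.33 to 0.11, with a mean of -0.13 ± 0.14 (SD, n = 8). The library without s4U and IAA held 168 RPM of miR-281-3p, 148 RPM of miR-281-2-5p and 29.1 RPM of miR-281-1-5p, each above the highest value of the unoxidised time course.

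**Figure D1:**
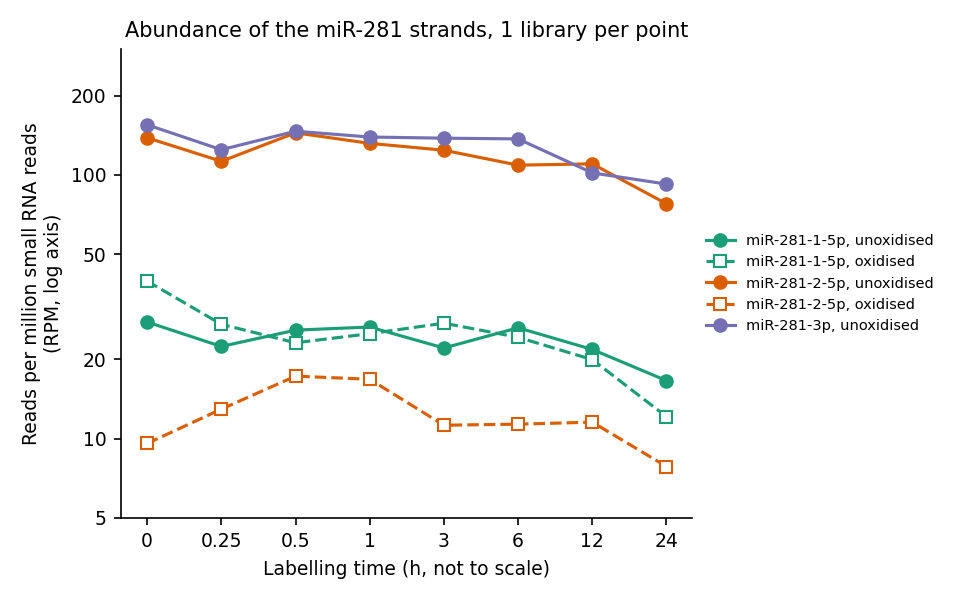
Abundance of the miR-281 strands in RPM (log axis) at each labelling time, with 1 library per point; filled circles and solid lines are unoxidised libraries, open squares and dashed lines oxidised ones. In unoxidised RNA miR-281-3p and miR-281-2-5p run together between 77.8 and 155 RPM, and after oxidation miR-281-2-5p lies between 7.83 and 17.2 RPM while miR-281-1-5p stays near its unoxidised level.

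The reads of both 5p strands together were 1.10 times ± 0.0965 (SD, n = 8) the reads of the 3p strand. The ratio ran from 0.987 in the 6 h library to 1.30 in the 12 h library, or 0.14 ± 0.12 (SD, n = 8) on the log2 scale, and it was 1.05 in the library without s4U and IAA. Because the 3p reads cannot be divided between the hairpins, no ratio of either hairpin alone can be given. With miR-281-2-5p alone against all 3p reads, the mean log2 ratio was -0.13 ± 0.14 (SD, n = 8). The 27 hairpins with both arms at 100 RPM or more included mir-281-2 when all shared 3p reads were set against its 5p strand. With that assignment its arms were the nearest to equal, which is how it was chosen. The next were miR-9c at a log2 ratio of 5p to 3p of 2.36, miR-33 at 2.42, miR-282 at 2.44, miR-308 at -2.65 and miR-998 at -2.85. The arms of miR-9c, the hairpin after mir-281-2 in this order, were at 1220 RPM (5p) and 237 RPM (3p).

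Oxidation parted the listed 5p strands. They differ in start as well as in hairpin of origin, so copy and start cannot be told apart in this and the following comparisons of the copies. miR-281-1-5p ranged from 12.1 to 39.6 RPM after oxidation with a median of 24.6 RPM (24.8 RPM ± 7.73, SD, n = 8; 351 to 1682 reads). miR-281-2-5p ranged from 7.83 to 17.2 RPM with a median of 11.4 RPM (12.3 RPM ± 3.27, SD, n = 8; 220 to 668 reads). The oxidised and unoxidised values of miR-281-1-5p overlapped on this scale, while every oxidised value of miR-281-2-5p was below every unoxidised one. In the authors' tables the 3p strand is typed as the mature strand and the 5p strands as star strands in unoxidised RNA, whereas both 5p strands are typed as mature after oxidation.

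Relative to the other miRNAs of the library, miR-281-1-5p rose and miR-281-2-5p fell. With TMM scaling and time as a block, the log2 change of miR-281-1-5p was 2.26 ± 0.20 (SE, 8 pairs; edgeR quasi-likelihood test, adjusted p = 1.87e-06). That of miR-281-2-5p was -1.04 ± 0.11 (SE, 8 pairs; edgeR, adjusted p = 8.08e-06). A call was common: of 80 strands tested, 86.2% passed, 43.8% as higher and 42.5% as lower, so 2 calls among 2 members are near the background. miR-281-1-5p ranked 16 from the highest change and miR-281-2-5p 29 from the lowest.

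The scaling decided the call for miR-281-1-5p. When all small RNA reads set the scale, its log2 change was 0.02 ± 0.16 (SE, 8 pairs; edgeR, adjusted p = 0.907) and that of miR-281-2-5p was -3.29 ± 0.15 (SE, 8 pairs; edgeR, adjusted p = 2e-09). On that scale the median of all 80 strands was -2.35, against -0.11 with TMM, and 78.8% passed, 10.0% as higher and 68.8% as lower. The difference between the copies is within a library and the same on either scale.

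Strands of known sorting lay to either side. Of the 13 abundant S2 miRNAs, which are mainly Ago1 guides, 1 was higher and 12 were lower after oxidation with TMM scaling (median log2 change -3.29, against -0.11 over all strands tested). Of 12 strands reported in Ago2, 10 were higher and 1, miR-34-3p, was lower (log2 change -4.12; median of the list 2.04). Over all 80 strands tested, 43.8% were higher and 42.5% lower. With all small RNA reads as the scale, the counts were 0 higher and 13 lower for the S2 list (median -5.53) and 3 higher and 4 lower for the Ago2 list (median -0.19). Over all strands on that scale, 10.0% were higher and 68.8% lower. On both scales the change of miR-281-1-5p lay just above the median of the Ago2 list, and that of miR-281-2-5p lay between the medians of the lists. The lists were chosen with earlier results of these data known, so this placing is a description only. miR-277-3p, an abundant S2 miRNA known to load Ago2, is on both lists.

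The ratio of the copies was measured within each library, which removes the scaling. In unoxidised RNA there were 0.201 ± 0.0202 (SD, n = 8; 0.178 to 0.241) reads of miR-281-1-5p for each read of miR-281-2-5p, and 0.197 in the library without s4U and IAA. After oxidation the ratio was 2.11 ± 0.898 (SD, n = 8; 1.34 to 4.13). Every oxidised library was above every unoxidised one, and the share of miR-281-1-5p among 5p reads went from 16.7% ± 1.39 to 66.0% ± 7.48 (SD, n = 8 each). The log2 ratio rose by 3.31 ± 0.53 (SD, 8 pairs) and was higher in 8 of 8 pairs (two-sided exact sign-flip permutation test over the time pairs, p = 0.00781, the smallest that 8 pairs allow). The same test was not run on the ratios of other strands. Of the 80 strands tested for abundance, 86.2% passed with TMM scaling, so changed ratios between strands can be common. The rise of the copy ratio ran from 2.86 at 24 h to 4.37 at 0 h, and leaving out 1 pair at a time kept its mean between 3.16 and 3.37.

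**Figure D2:**
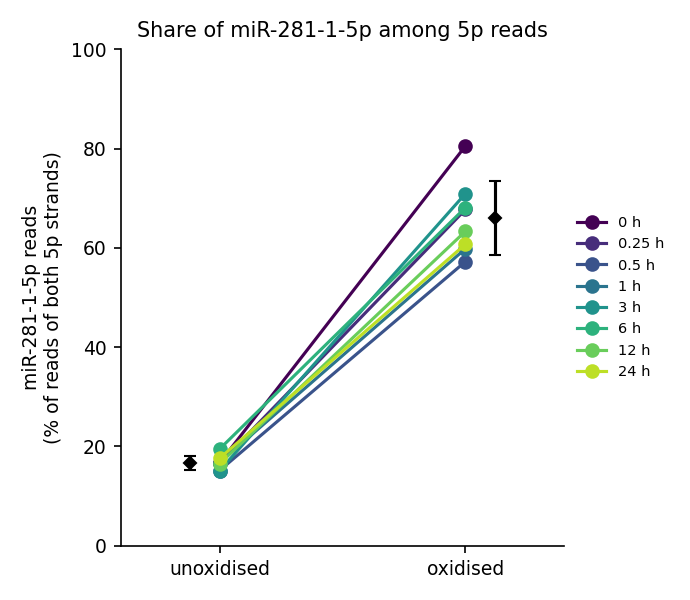
Reads of miR-281-1-5p as a percentage of the reads of both 5p strands, with a line for each labelling time that joins the unoxidised and the oxidised portion of the same RNA; diamonds and bars are the mean and SD of 8 libraries. The share lies between 15.1% and 19.4% before oxidation and between 57.2% and 80.5% after it.

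Of the 5 hairpins next in strand evenness, 4 had both arms among the strands tested. With TMM scaling both arms of miR-33 were higher after oxidation, with log2 changes of 1.88 ± 0.22 for the 5p and 2.81 ± 0.27 for the 3p arm (SE, 8 pairs; edgeR, adjusted p = 1.55e-05 and 3.58e-06). In the other 3, on the same scale, the less abundant arm rose and the more abundant one fell: miR-282-3p changed by 2.63 and miR-282-5p by -5.60, miR-308-5p by 2.10 and miR-308-3p by -5.81, and miR-998-5p by 3.86 and miR-998-3p by -1.69 (log2, edgeR, adjusted p at most 2.78e-06). Of miR-9c only the 5p arm was among the strands tested, at 1.60 ± 0.17 (SE, 8 pairs; edgeR with TMM, adjusted p = 8.08e-06). With all small RNA reads as the scale, miR-998-5p was the one of these arms that still passed as higher (log2 change 1.63; edgeR, adjusted p = 3.06e-06). The others that rose with TMM then lay at -0.36 for miR-33-5p, 0.60 for miR-33-3p, 0.39 for miR-282-3p and -0.12 for miR-308-5p (edgeR, adjusted p = 0.0722, 0.111, 0.0776 and 0.676), and miR-9c-5p passed as lower (-0.64, adjusted p = 0.00177). The arms that fell with TMM were lower on that scale too, by log2 changes of -7.83 for miR-282-5p, -8.01 for miR-308-3p and -3.93 for miR-998-3p (edgeR, adjusted p at most 4.99e-08).

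Read length moved in opposite directions for the copies. The listed start of miR-281-1-5p is 1 base earlier, so reads of equal length from the copies do not end at the same place. miR-281-1-5p had a mean length of 21.9 nt ± 0.115 (SD, n = 8) before and 22.3 nt ± 0.0964 (SD, n = 8) after oxidation. It was longer in 8 of 8 pairs, by 0.392 nt ± 0.151 (SD, 8 pairs; two-sided exact sign-flip permutation test, p = 0.00781, adjusted over the 2 strands to 0.00781). Its reads of 20 nt or less went from 12.6% ± 3.19 to 4.01% ± 1.95 (SD, n = 8 each).

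miR-281-2-5p had a mean length of 22.4 nt ± 0.0553 (SD, n = 8; 22.3 to 22.5) before and 21.7 nt ± 0.105 (SD, n = 8; 21.5 to 21.9) after oxidation. It was shorter in 8 of 8 pairs, by 0.730 nt ± 0.117 (SD, 8 pairs; same exact permutation test, p = 0.00781, adjusted 0.00781). Its most frequent length was 23 nt in 8 of 8 unoxidised and 22 nt in 8 of 8 oxidised libraries, and reads of 23 nt or more went from 56.9% ± 3.69 to 20.8% ± 4.19 (SD, n = 8 each). Of all 80 strands, 58.8% moved one way in every pair, 20% as longer and 38.8% as shorter, with a median change of -0.152 nt. Among them miR-281-1-5p had the change ranked 4 from the highest and miR-281-2-5p that ranked 19 from the lowest; miR-305-5p lengthened most, by 1.06 nt, and bantam-3p shortened most, by 2.46 nt.

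**Figure D3:**
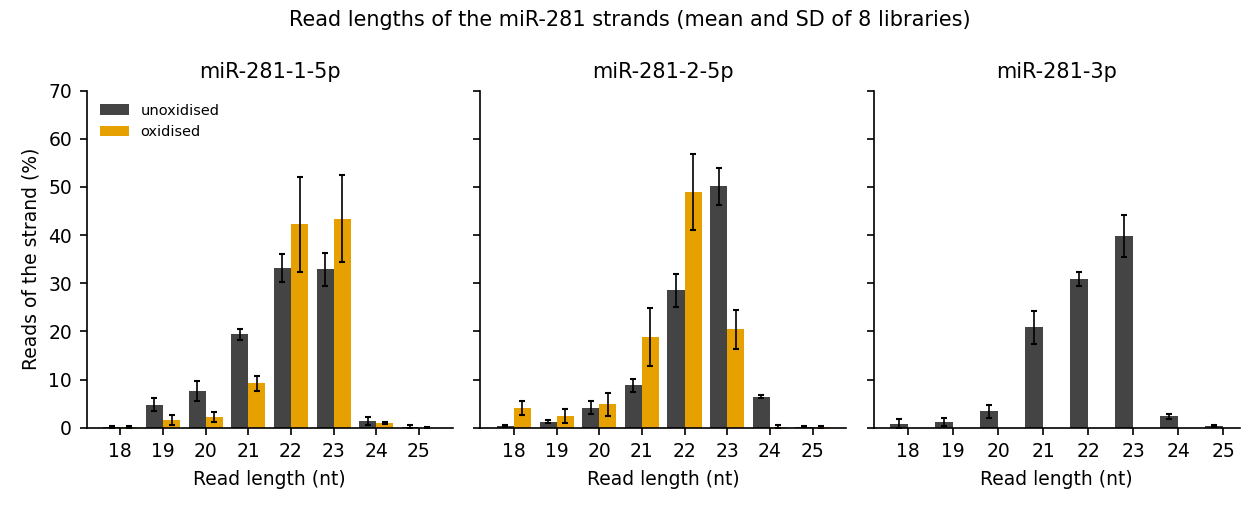
Read lengths of each strand as a percentage of its reads (bars, mean of 8 libraries; error bars, SD), dark for unoxidised and light for oxidised libraries; miR-281-3p is shown unoxidised. miR-281-2-5p peaks at 23 nt before and at 22 nt after oxidation, while for miR-281-1-5p the mean share of 21 nt reads is 19.4% before and 9.26% after it.

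The longest miR-281-2-5p reads carried bases that do not match the hairpin. At nucleotide 24, between 67.9% and 83.0% of its unoxidised reads mismatched the hairpin (8 libraries, 135 to 217 reads each), with C in 36.4% to 42.9% and U in 27.4% to 42.2%. At nucleotide 23 the mismatches were 2.75% to 4.43%, and at nucleotide 22, a U, they were 0.090% to 1.26%. The highest value at nucleotide 22 was in the 24 h library, where 17 of 20 mismatches were C, as label gives. Reads of 24 nt made up 6.49% ± 0.290 (SD, n = 8) of this strand before and 0.264% ± 0.331 (SD, n = 8) after oxidation. In miR-281-3p, nucleotide 24 mismatched in 48.0% to 80.7% of reads, with U in 44.0% to 63.9%. How these bases arose was not tested.

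The 3p strand had a mean length of 22.1 nt ± 0.127 (SD, n = 8; 21.9 to 22.3), between those of the unoxidised 5p strands. Reads of 23 nt were its most frequent class in 7 of 8 unoxidised libraries, and the 6 h library peaked at 22 nt. That library also had the largest share of 3p reads of 20 nt or less, 11.6%, against 2.53% to 7.55% in the other 7.

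All members lay below the median strand in label. At 24 h of the unoxidised series, T>C made up 0.524% of the reads over U positions of miR-281-1-5p (7 of 1337; exact Clopper-Pearson 95% interval 0.211 to 1.08%). It made up 0.882% for miR-281-2-5p (64 of 7253; 0.680 to 1.13%) and 1.45% for miR-281-3p (337 of 23207; 1.30 to 1.61%). The median of 119 strands with enough reads was 2.10%, and the members ranked 4, 10 and 27 from the lowest. These intervals cover counting error only, and they treat the U positions of 1 molecule as independent. The neighbours of miR-281-1-5p in this order were miR-992-5p and miR-4940-5p at 0%, miR-2c-3p at 0.501%, and above it miR-1013-5p at 0.554%, miR-318-3p at 0.571% and miR-966-5p at 0.828%. miR-281-2-5p stood between miR-966-5p, miR-1009-5p at 0.842% and miR-2489-3p at 0.857% below it and miR-986-5p at 0.95%, miR-1005-5p at 1.01% and miR-6-3-3p at 1.19% above it. Around miR-281-3p were miR-998-5p at 1.41%, miR-278-3p at 1.42%, miR-988-3p at 1.42%, bantam-5p at 1.48%, miR-1007-3p at 1.51% and miR-308-5p at 1.52%.

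The course over time differed in what it started from. miR-281-2-5p had 0.00840% without label, 0.0607% after 0.25 h and 0.0485% after 0.5 h. It then went up at each step, to 0.0962% (1 h), 0.245% (3 h), 0.366% (6 h) and 0.505% (12 h). miR-281-3p had 0.348% without label and stayed between 0.332% and 0.420% up to 1 h, before 0.533% (3 h), 0.615% (6 h) and 1.04% (12 h). miR-281-1-5p rested on 1 to 7 T>C reads per library, with 0.0482% (0 h), 0.297% (1 h), 0.30% (6 h) and 0.439% (12 h), and its intervals overlapped throughout. Above the 0 h library, the 24 h values were 0.475% for miR-281-1-5p, 0.874% for miR-281-2-5p and 1.10% for miR-281-3p, against a median of 2.02% over the 119 strands.

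**Figure D4:**
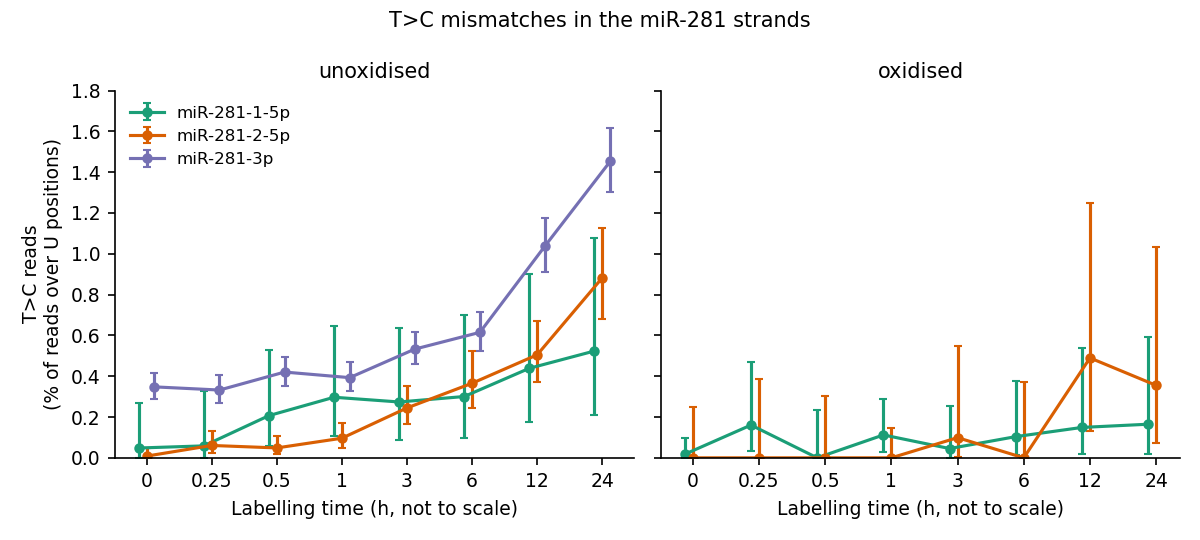
T>C mismatches as a percentage of reads over U positions by labelling time, unoxidised on the left and oxidised on the right, with exact 95% intervals of the counts. In unoxidised RNA miR-281-3p starts at 0.348% and reaches 1.45% at 24 h, and the 5p strands start at 0.0482% or less.

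The high start of miR-281-3p came from 1 position. Over its U at nucleotide 23, C was read in 6.54% of reads at 0 h (107 of 1636; exact 95% interval 5.39 to 7.85%), in 6.38% at 24 h (55 of 862; 4.84 to 8.22%) and in 7.16% of the library without s4U and IAA (165 of 2306; 6.14 to 8.28%). The intervals of the 3 libraries overlapped. Over the 7 U up to nucleotide 18, T>C of miR-281-3p was 0.0498% without label (12 of 24087) and went through 0.231% (3 h), 0.367% (6 h) and 0.765% (12 h) to 1.24% after 24 h (195 of 15715; exact 95% interval 1.07 to 1.43%). For the 5p strands, the 3 U up to nucleotide 18 gave 0.829% (47 of 5670) for miR-281-2-5p and 0.414% (5 of 1209) for miR-281-1-5p at 24 h.

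Within the strands the U positions were unequal. At 24 h the highest position of miR-281-3p before nucleotide 23 was nucleotide 11 with 2.32% (52 of 2245; exact 95% interval 1.74 to 3.03%), and the lowest were nucleotides 3 and 15 with 0.802% each (18 of 2245; 0.476 to 1.26%). In miR-281-2-5p nucleotide 11 had 1.22% (23 of 1890; 0.773 to 1.82%) and nucleotide 15 had 0.317% (6 of 1890; 0.117 to 0.690%). The positions were ranked after their values were seen. Among the other mismatch types up to nucleotide 18, the most frequent in any unoxidised library reached 0.326% for miR-281-1-5p, 0.253% for miR-281-2-5p and 0.228% for miR-281-3p. The value of miR-281-1-5p was G>A in the 0 h library, and in its 24 h library the highest other type was 0.124%. Its T>C over the same positions was 0 of 1842 at 0 h and 0.414% at 24 h. The latter rests on 5 reads, and its exact 95% interval (0.134 to 0.962%) includes 0.326%.

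**Figure D5:**
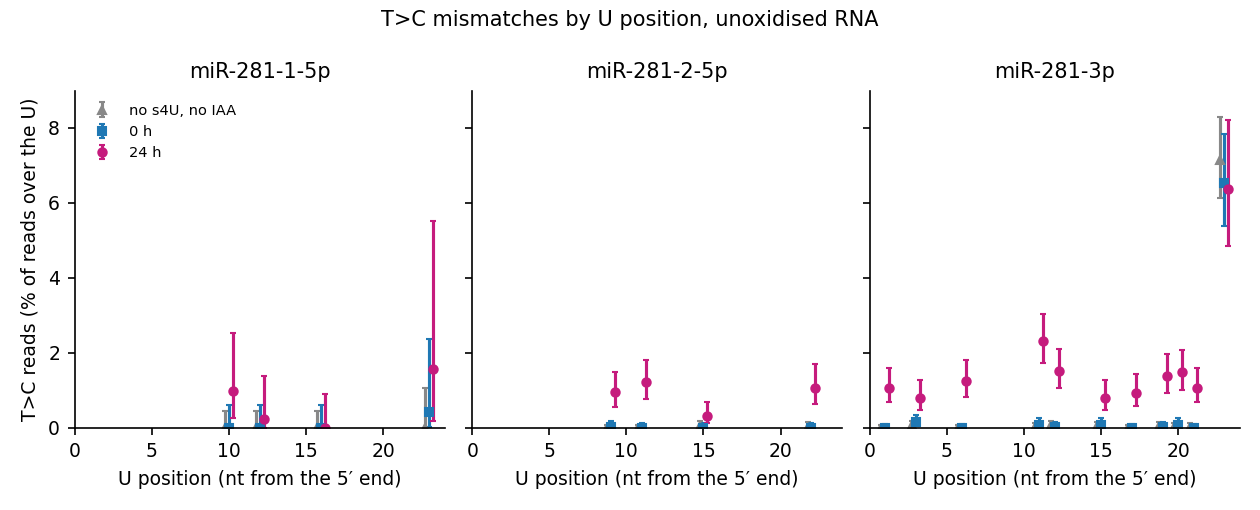
T>C mismatches at each U up to nucleotide 23 of each strand, as a percentage of reads over that U with exact 95% intervals, in the library without s4U and IAA (triangles) and in the unoxidised libraries of 0 h (squares) and 24 h (circles). In miR-281-3p nucleotide 23 lies at 6.38% to 7.16% in all 3 libraries, while the other U positions are near 0 without label.

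After oxidation the label of the 5p strands was at the limit of detection. At 24 h, 2 of 1214 reads over U of miR-281-1-5p showed T>C (0.165%; exact 95% interval 0.020 to 0.594%) and 3 of 845 of miR-281-2-5p (0.355%; 0.0733 to 1.03%). At 12 h the counts were 2 of 1342 (0.149%) and 4 of 817 (0.490%). In 6 of 8 oxidised libraries miR-281-2-5p had 0 or 1 T>C read, and at 0 h a count of 0 of 1479 allows up to 0.203%. The intervals at 24 h overlapped those of the unoxidised library. From 0.5 h on, the oxidised value of both strands was below the unoxidised one at each time. For miR-281-1-5p it was 0.0455% against 0.274% at 3 h and 0.149% against 0.439% at 12 h. For miR-281-2-5p it was 0.0989% against 0.245% at 3 h and 0.490% against 0.505% at 12 h. At 0.25 h that of miR-281-1-5p was higher (0.161% against 0.0586%). A difference in label between the groups was not tested.

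T>C reads of miR-281-3p were longer than all reads of the strand, and so were those of miR-281-2-5p at the late times. At 24 h, 96 of 167 T>C reads of miR-281-3p in the authors' length tables were 23 nt or longer (57.5%; exact 95% interval 49.6 to 65.1%), against 38.4% of its 2245 reads. At 12 h the shares were 67.6% of 105 T>C reads and 43.9% of all reads. For miR-281-2-5p they were 78% of 41 T>C reads (62.4 to 89.4%) against 50.2% at 24 h, and 81.3% of 32 against 52.1% at 12 h. At 6 h the shares were 51.7% of 58 T>C reads against 34.6% for miR-281-3p, and 60% of 20 T>C reads against 57.7% for miR-281-2-5p, the latter within the counting error. In miR-281-2-5p nucleotide 22 is a U and nucleotide 23 a C, so reads of 23 nt hold no more U than those of 22 nt. Reads shorter than 22 nt lack that U. In miR-281-3p nucleotide 23 is a U. At 0 h the authors counted 5 T>C reads of miR-281-3p, while 107 of its reads had C at nucleotide 23. The labels do not say how a T>C read was called. The part of the number of U or of this calling in the difference was not tested.

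Abundance over time was tested as a slope per unit of log2(1 + h). In unoxidised RNA the slopes were -0.13 ± 0.04 for miR-281-2-5p, -0.12 ± 0.05 for miR-281-3p and -0.09 ± 0.05 for miR-281-1-5p (SE, 8 libraries; edgeR, adjusted p = 0.0860, 0.146 and 0.242). None passed the threshold; of 126 strands 0.794% did, as higher (1 strand, with 32 at an unadjusted p under 0.05). The slopes ranked 5, 11 and 18 from the lowest. Without the 6 h library those of miR-281-2-5p and miR-281-3p passed (-0.14 each; edgeR, adjusted p = 0.0474 and 0.0436), when 13 of 126 strands did, 4 as higher and 9 as lower. Without the 0.25 h library that of miR-281-2-5p passed (-0.16; edgeR, adjusted p = 0.0468), with 4 of 126 strands, 1 as higher and 3 as lower, while without the 24 h library the slope of miR-281-2-5p was -0.07. In oxidised RNA the slopes were -0.24 ± 0.11 for miR-281-1-5p and -0.10 ± 0.07 for miR-281-2-5p (SE, 8 libraries; edgeR, adjusted p = 0.421 and 0.640), and 0 of 93 strands passed (0%; 12 at an unadjusted p under 0.05). The slopes of the groups were not shown to differ (difference -0.16 ± 0.12 and -0.02 ± 0.07, SE; edgeR, adjusted p = 0.605 and 0.888; 0 of 80 strands passed, 0% of them, and 0 at an unadjusted p under 0.05).

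The strands whose levels followed each copy over the 16 libraries of the time courses were not the same. On the scale of log2(CPM + 1), miR-281-1-5p was most like miR-33-5p (Pearson r = 0.988), bantam-5p (0.986), miR-998-5p (0.985), miR-263a-5p (0.978) and miR-9c-5p (0.973). miR-281-2-5p was most like miR-278-3p (0.862), miR-998-3p (0.853), miR-34-3p (0.842), miR-79-3p (0.832) and miR-965-3p (0.813). The 16 libraries form 2 groups by oxidation, and the points of a pair share their RNA, so these values describe mainly the difference between the groups. Over the 8 unoxidised libraries alone, miR-281-3p was most like miR-968-5p (0.954), miR-277-5p (0.953), miR-318-3p (0.899), miR-278-3p (0.891) and miR-281-1-5p (0.890).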

How the data were processed

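Small RNA of 18 to 30 nt from S2 cells was sequenced, with 4 random nucleotides at each ligation end, per the labels' protocols. The submitters' processing notes name Bowtie 1.2.2, cutadapt 1.7.1, Picard and dm6, without settings. The authors' mismatch tables give counts, the reads with each nucleotide at each position of an arm, and their library tables give the totals as counts. Their deposited tables of positions and of lengths give a signal in RPM, scaled to all small RNA reads, and 100% of their values gave whole reads when multiplied by the library total (tolerance 0.001).

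From these, abundance was tested with edgeR 4.0.16 (R 4.3.3; TMM, filterByExpr, Benjamini-Hochberg at 0.05) over all strands, with copies that share a mature strand counted once. Oxidation was tested over 80 of 84 arms with the same start in both groups, with labelling time as a block because the portions of each time come from 1 split RNA. The ratio of the copies and mean length were tested with exact sign-flip permutations over 8 time pairs. Ranks of T>C needed 1000 reads over U positions at 24 h, and lengths of T>C reads needed 20 such reads. Intervals are exact Clopper-Pearson at 95%, cover counting error only, and a count of 0 allows 3 counts of the total. Folds came from RNAfold 2.7.2, intervals from scipy 1.17.1, figures from matplotlib 3.10.9, and the rest from pandas 2.3.3 and numpy 2.4.6 in Python 3.11.15. The tests were checked on simulated data.

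The members, lists, tests and alternatives were chosen with earlier results of these data known. Other miRNAs were named by rule: the 5 strands most like each member, the 3 next to it on each side in 24 h T>C, the 5 hairpins next in strand evenness, and list members where their values are given; miR-305-5p was named after its values were seen. The planned change of the 5p to 3p ratio with oxidation could not be computed, since no values of the 3p strand after oxidation were used here; likeness of that strand was taken over the 8 unoxidised libraries. That likeness, the test of a difference in slopes and the lengths of all 80 strands were added after the data were seen. Alternatives were DESeq2 1.42.0, other scalings, no filter, no block, hours in place of log2(1 + h), lengths of 20 to 24 nt, U positions to nucleotide 18, the mean of position percentages, read sums from the position tables, and leaving out each time.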

Additional observations from a re-analysis of the deposited data

How the results depend on the processing

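Of 129 alternative values over 16 results, 122 kept their direction and side of the threshold or stayed within the error. With all small RNA reads as the scale the log2 change of miR-281-1-5p with oxidation was 0.021 (edgeR, adjusted p = 0.907). The share of miRNA reads was lower after oxidation, and with this scale the median strand moved from -0.11 to -2.35. With miRNA totals and no TMM, the changes were 2.74 and -0.56. Without the block by time they were 2.39 for miR-281-1-5p and -1.03 for miR-281-2-5p, and both calls held; the pairing comes from the split of each RNA. The slope of miR-281-2-5p in unoxidised RNA passed with hours as the scale (-0.030 per h, adjusted p = 0.0369), when 8 of 126 strands passed in place of 1; the cause was not tested. T>C of miR-281-3p at 24 h was 1.24% up to nucleotide 18 and 1.73% as the mean of positions, since nucleotide 23 is left out or weighs more.

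Leaving out 1 pair at a time, the oxidation changes ran from 1.95 to 2.28 and from -1.27 to -1.04, the rise of the copy ratio from 3.16 to 3.37, and the length changes from 0.361 to 0.433 nt and from -0.765 to -0.711 nt. The unoxidised log2 ratio of 5p to 3p ran from 0.10 to 0.16. Leaving out 1 library, the slopes in unoxidised RNA ran from -0.158 to -0.069 for miR-281-2-5p, from -0.144 to -0.078 for miR-281-3p and from -0.12 to -0.03 for miR-281-1-5p, and in oxidised RNA from -0.28 to -0.08 for miR-281-1-5p and from -0.13 to -0.04 for miR-281-2-5p. Depth limits the label of miR-281-1-5p, with 7 T>C reads at 24 h, and that of both 5p strands after oxidation.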
